A study of Mus musculus with 6 samples.

Results

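Lcn2, Mup3, Apod and Ptgds are 4 mouse genes of the lipocalin family, taken by symbol from 22180 genes that had a probe set with exactly 1 gene symbol in the platform annotation. Each of the 4 had 1 probe set. They had been picked for large differences between arrays, so their values describe these arrays and were not tested. That description held for 3 of them. Over the 6 arrays, Lcn2, Mup3 and Apod spanned 2 or more log2 units, as did 2.38% of the 14295 genes measured on any array, whereas Ptgds spanned 0.55.

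Lipocalins are small, mostly secreted proteins that fold into a barrel with a pocket for a fatty or aromatic ligand. Lcn2, also known as neutrophil gelatinase-associated lipocalin, captures bacterial iron-binding siderophores, and many cell types, fibroblasts among them, make it under inflammatory signals. Major urinary proteins such as Mup3 carry volatile pheromones and are known as liver products. Apod binds arachidonic acid and is made by glia and by resting fibroblasts, and Ptgds is both the enzyme that makes prostaglandin D2 and a carrier of lipophilic molecules, abundant in the meninges.

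Total RNA (6 µg) from 6 samples was hybridised to Affymetrix arrays, 1 array for each group. All samples carried the labels PV-GFP transgenic, strain C57BL/6 and an embryo age of 13.5 days. The reference was mouse embryonic fibroblasts (MEF). In the others, fibroblasts had been turned toward parvalbumin (PV) neurons for 3, 7 or 14 days (iPV). A further pair comprised iPV cells at 14 days sorted for green fluorescent protein, and a sample labelled as endogenous PV neurons. The same text on infection with adenovirus stands on all 6 samples, MEF and the endogenous sample included, and neither the genes that the virus carried nor the promoter of the transgene is given in the sources used here. Of 11 fibroblast markers, 10 lay above the floor in sorted cells, the exception being S100a4 at 4.78, and all 11 on each other array. On the array labelled endogenous the list had a summed linear intensity of 36562 against 35368 in MEF. Of 15 markers of PV neurons, 10 lay above the floor there, 8 in MEF and 8 in sorted cells, with sums of 612, 592 and 1007. Gad2, Erbb4, Tac1, Kcnc1 and Dcx were at or below it on all 6 arrays. In sorted cells Pvalb, Tubb3, Snap25 and Syt1 were at least 2-fold higher than in MEF, beside 6.04% of all genes. Gad1 and Slc32a1 were below the floor in sorted cells, at 4.68 and 4.46. The array labelled endogenous is called the endogenous-labelled array. With bulk RNA, fewer cells of a type and less RNA per cell cannot be told apart.

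Values are log2 intensities. The floor is 5.01, the median over every probe set that is no control. Lower values were raised to it before a difference was taken, and a fold against a value at the floor is a lower bound, written "at least". No group had a replicate, so there is no standard deviation and no test. As a yardstick, the technical spread, taken from genes with 2 or more probe sets, lay between 0.27 and 0.50 log2 units over the 15 pairs of arrays. It leaves out variation between cultures and animals.

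Lcn2 was bright in fibroblasts and brighter on all 5 other arrays. It had 8.98 in MEF, 10.99, 11.77 and 11.71 at days 3, 7 and 14, 11.31 after sorting and 12.18 on the endogenous-labelled array. MEF stood apart as the lowest array, 2.01 below the next, while the gaps among the other 5 arrays, from 0.07 to 0.41, were each under 2 technical spreads between neighbours. Arrays further apart in that order differed by more, as day 7 was above day 3 by 0.79, with a spread of 0.33, and sorted cells were below the endogenous-labelled array by 0.88, with a spread of 0.32. Against MEF the fold was 4.03, 6.96 and 6.64 at days 3, 7 and 14, 5.04 after sorting and 9.25 on the endogenous-labelled array. Sorted cells were lower than unsorted cells of the same day by 0.40 on the log2 scale, against a technical spread of 0.33.

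The bases before the start of Lcn2 are shown because its level differed most widely among genes of this family that were above the floor on every array. The window holds 250 bases at chr2:32387740-32387989, minus strand, from RefSeq with the build GRCm38.p6, written 5′ to 3′. Capitals mark matches to a short set of motifs searched on both strands.
Lcn2: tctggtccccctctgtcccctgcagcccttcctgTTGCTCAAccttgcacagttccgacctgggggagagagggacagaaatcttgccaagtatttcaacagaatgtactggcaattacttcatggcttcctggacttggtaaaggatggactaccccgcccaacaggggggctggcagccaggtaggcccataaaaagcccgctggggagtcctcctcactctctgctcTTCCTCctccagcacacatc
A C/EBP-type match to TTGCNNAA began 216 bases upstream of the transcript's first base. An ETS-type match to GAGGAA lay on the opposite strand 20 bases upstream. The former letters occur in 9.56% and the latter in 23.3% of 32851 such windows. The other patterns searched had no match in this window. They were the TATA box as TATAAA (12.4% of windows) or in its variant form TATATAA (3.04%), the STAT-type TTCNNNGAA (7.02%), the AP-1-type TGANTCA (6.75%), the CCAAT box as CCAAT (33.8%) and the kappa B consensus (7.25%). A match describes the letters only.

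Mup3 was at or below the floor in MEF and at day 3 and clearly above it on the other 4 arrays. Its values were 4.72 in MEF, 4.98, 8.54 and 8.75 at days 3, 7 and 14, 6.54 after sorting and 9.43 on the endogenous-labelled array. Day 7 and day 14 differed by 0.21, within the technical spread of 0.27, and sorted cells lay between these arrays and the first 2, apart from both by more than 2 spreads. Against MEF the fold was at least 11.5 at day 7, at least 13.4 at day 14, at least 2.89 in sorted cells and at least 21.4 on the endogenous-labelled array. In that last comparison its difference ranked 2 among 13390 genes. Sorted cells were 4.63-fold lower than unsorted day 14 cells, the 7th lowest of 13198 differences, and 7.42-fold lower than the endogenous-labelled array. Mup3 had been picked for large differences between these arrays, so nothing is read from its ranks.

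Mup3 lies in a tandem cluster of closely related genes, and RefSeq places Mup5 and Mup20 before it and Mup21 after it. Its 250 upstream bases are shown for that reason, at chr4:62087318-62087567, minus strand, GRCm38.p6, with a TATATAA match in capitals that begins 11 bases upstream.
Mup3: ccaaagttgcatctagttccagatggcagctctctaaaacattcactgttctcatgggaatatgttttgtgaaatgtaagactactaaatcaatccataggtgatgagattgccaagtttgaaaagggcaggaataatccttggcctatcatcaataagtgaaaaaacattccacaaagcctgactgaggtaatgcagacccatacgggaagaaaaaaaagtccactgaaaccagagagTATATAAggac
It was the only match to the patterns searched. The windows of 13 other Mup genes with an entry matched this one at 82.4% to 93.4% of aligned bases, with a median of 87.6%. The closest was that of Mup21. Between 169 and 244 of the 250 bases were aligned, and gaps were left out. Mup5 and Mup20 had no entry.

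Among these neighbours, Mup20, which encodes the male pheromone darcin, had a similar order of arrays. It had 2.51 in MEF, 3.17, 5.89 and 6.58 at days 3, 7 and 14, 3.98 after sorting and 7.08 on the endogenous-labelled array. Only days 7 and 14 and the endogenous-labelled array were above the floor, and the last of these was at least 4.20-fold above MEF. Mup21 stayed between 0.89 and 2.83 and Mup5 between 2.90 and 4.42, below the floor on all arrays, as did Mup6. Beyond the cluster, Zfp37 spanned 0.52 and Slc31a2, a copper transporter family gene, 1.06. A probe set shared by 4 Mup symbols had 3.37 in MEF, 3.48, 5.09 and 4.79 at days 3, 7 and 14, 4.18 after sorting and 4.96 on the endogenous-labelled array. Another shared by 4 Mup symbols stayed between 1.49 and 2.77. Probe sequences were not used here, so how much of a Mup signal came from near-identical copies was not tested.

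**Figure D1:**
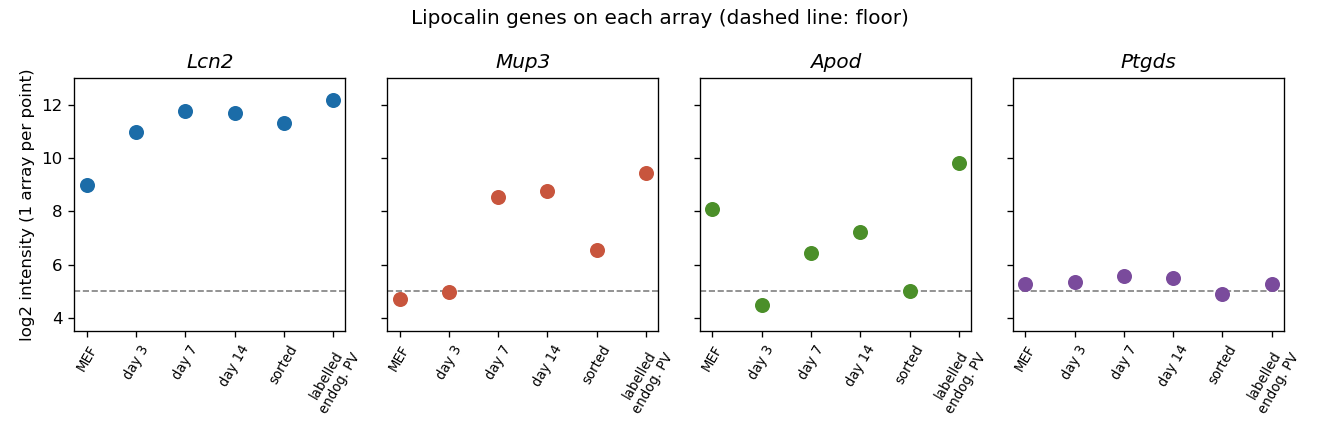
Log2 intensity (y axis) of Lcn2, Mup3, Apod and Ptgds on the 6 arrays (x axis); each point is 1 array and the dashed line is the floor of 5.01. Lcn2 is lowest in MEF at 8.98, Mup3 is under the floor in MEF and at day 3, Apod is under it at day 3 and on it after sorting, and Ptgds stays between 4.89 and 5.56.

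Apod had the widest span of the family and an order of arrays unlike that of Lcn2 or Mup3. It had 8.11 in MEF, 4.48, 6.44 and 7.24 at days 3, 7 and 14, 5.01 after sorting and 9.81 on the endogenous-labelled array. Day 3 was below the floor and sorted cells at it, 7 and 14 days lay between them and MEF, and only the endogenous-labelled array exceeded MEF. Every gap between neighbours above the floor was over 2 technical spreads. Apod was at least 8.55-fold lower than MEF at day 3 and in sorted cells, 3.18-fold lower at day 7 and 1.82-fold lower at day 14. It was 3.26-fold higher than MEF on the endogenous-labelled array. Sorted cells were at least 4.69-fold below unsorted day 14 cells, the 6th lowest of 13198 differences. They were at least 27.9-fold below the endogenous-labelled array, the 3rd lowest of 13224. Apod too had been picked for large differences, so nothing is read from these ranks.

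The upstream window of Apod, at chr16:31314809-31315058, minus strand, GRCm38.p6, is shown for comparison with that of Lcn2, since the order of arrays differed.
Apod: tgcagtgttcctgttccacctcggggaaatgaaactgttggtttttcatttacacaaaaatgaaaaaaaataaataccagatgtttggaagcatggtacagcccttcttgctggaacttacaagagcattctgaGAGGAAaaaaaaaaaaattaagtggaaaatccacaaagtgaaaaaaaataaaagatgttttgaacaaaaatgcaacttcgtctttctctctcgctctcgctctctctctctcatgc
It had 36.4% G and C against 56.4% for Lcn2, 39.2% for Mup3 and 58.4% for Ptgds. Capitals mark an ETS-type GAGGAA match that begins 116 bases upstream, the only match to the patterns searched. Among the genes beside Apod on chromosome 16, Ppp1r2, an inhibitor of a protein phosphatase, spanned 0.33 and Acap2 spanned 0.49, while Bdh1, a ketone body enzyme, spanned 1.22.

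Ptgds stayed close to the floor on all arrays. It had 5.29 in MEF, 5.36, 5.56 and 5.51 at days 3, 7 and 14, 4.89 after sorting and 5.27 on the endogenous-labelled array. Sorted cells were the only array under the floor, and no gap between neighbouring arrays exceeded the technical spread. Arrays further apart differed by more, as sorted cells were below unsorted day 14 cells by at least 0.50, with a spread of 0.33. The span of Ptgds, 0.55, ranked 7987 among all genes. Next to Ptgds on chromosome 2, the lipocalin gene Lcn12 lay between 4.62 and 5.28 and C8g, a lipocalin subunit of complement, between 4.23 and 4.78.

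The members are set beside all genes measured on either array of a pair, counted at a difference of 1 log2 unit (2-fold). Since the members had been picked on these differences, nothing is read from the counts. At day 3 against MEF, Lcn2 was higher and Apod lower, where 2.37% of genes were higher and 2.70% lower. At day 7 against MEF, Lcn2 and Mup3 were higher and Apod lower, beside 2.79% and 1.39%. At day 14 against MEF, Lcn2 and Mup3 were higher, beside 3.47%, and 0 of 4 were lower, beside 2.08%. In sorted cells against MEF, Lcn2 and Mup3 were higher and Apod lower, beside 6.04% and 2.70%. On the endogenous-labelled array, Lcn2, Mup3 and Apod were higher than in MEF, beside 3.53%, and 0 lower, beside 1.61%.

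Between days 3 and 7, Mup3 was at least 11.5-fold and Apod at least 2.69-fold higher on the later array, beside 2.14% of genes higher, and 0 members were lower, beside 0.870%. Between days 7 and 14, 0 of 4 differed 2-fold in either direction, beside 1.01% higher and 1.37% lower. Apod had the widest difference in that pair, 0.80, and Lcn2 the narrowest but one, -0.07. In sorted against unsorted day 14 cells, Mup3 and Apod were lower, beside 1.02% of genes, and 0 were higher, beside 2.12%. Against the endogenous-labelled array, sorted cells had lower Mup3 and Apod, beside 1.91%, and 0 members higher, beside 2.28%. These comparisons share arrays and are not independent of each other. All 4 members were above the floor on either array in every pair except Mup3 at day 3 against MEF.

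**Figure D2:**
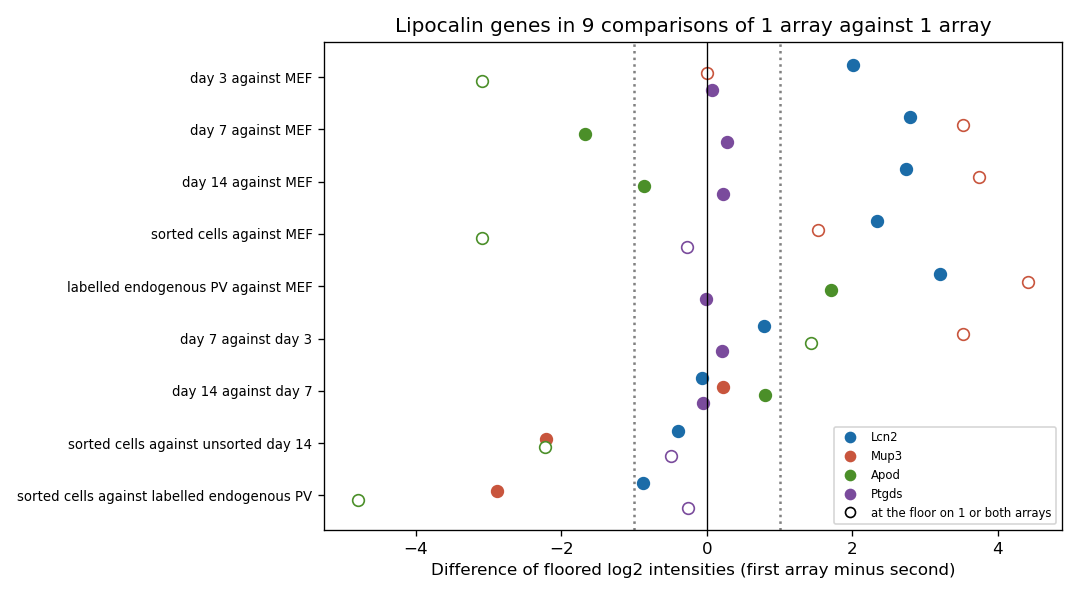
Difference of floored log2 intensities (x axis, first array minus second) for the 4 genes in 9 comparisons (y axis) of 1 array against 1 array; open circles have a value at the floor on 1 or both arrays, and dotted lines mark 2-fold. Lcn2 lies between 2.01 and 3.21 in the 5 comparisons with MEF, Apod lies on both sides of 0, and Ptgds stays within the dotted lines.

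Most of the remaining family lay at or below the floor or had no probe set with 1 symbol. Of all 22180 genes, 14295 were above the floor on any array. Of 48 symbols listed, 28 had a probe set with 1 symbol, and of the 24 that are not described above as members, 18 were at or below the floor on all 6 arrays. Orm1, Orm2 and Orm3, which encode the acute-phase protein orosomucoid, were among these 18, as were Apom and Ambp. Rbp4, the plasma carrier of retinol, was above the floor on all 6 arrays and ranged from 5.97 after sorting to 6.83 at day 7. Obp2a, an odorant-binding lipocalin, was above it only in sorted cells, with 6.11 there, 3.04 in MEF and values from 4.25 to 4.73 on the other 4 arrays, at least 2.14-fold above unsorted day 14 cells. Lcn6 lay between 5.16 and 5.86, highest in MEF, and Lcn10 between 4.59 and 5.12.

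Among receptors and partners of lipocalins, the matrix protease Mmp9, which Lcn2 binds, varied most. Mmp9 had 5.76 in MEF, 6.69, 7.31 and 6.61 at days 3, 7 and 14, 8.05 after sorting and 8.44 on the endogenous-labelled array. The Lcn2 receptor gene Slc22a17 lay between 6.21 at day 3 and 7.32 in sorted cells. Stra6, which takes up retinol from Rbp4, lay between 5.15 in MEF and 6.58 at day 7. Bsg, a reported receptor of Apod, was bright on all arrays, between 11.27 and 12.00. The endocytic receptors Lrp2 and Cubn and the Rbp4 partner Ttr stayed below the floor. In each comparison with MEF 6 genes of this list were measured. At days 3, 7 and 14, 0, 2 and 0 of them were higher, beside 2.37%, 2.79% and 3.47% of all genes, with median differences of 0.03, 0.33 and 0.39. In sorted cells 2 were higher, beside 6.04%, with a median of 0.69, and on the endogenous-labelled array 1, beside 3.53%, with a median of 0.14. No gene of the list was lower, and the medians over all genes were 0.02 to 0.08.

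Several genes of the inflammatory response were, like Lcn2, lowest in MEF. From a list of 23 inflammatory inducers and co-expressed genes, Saa3, Hp, Steap4 and Il6 were at least 2-fold higher than MEF on all 5 other arrays, of 18 or 19 genes measured in each comparison. Over all genes, 2.37%, 2.79% and 3.47% were higher at days 3, 7 and 14, 6.04% in sorted cells and 3.53% on the endogenous-labelled array. At day 3 1 gene of the list was lower, Cebpd, and 0 were lower in the other 4 comparisons with MEF. The list medians ran from 0.04 at day 3 to 0.65 on the endogenous-labelled array, where the medians over all genes were 0.02 and 0.04. Saa3, an acute-phase apolipoprotein, had 10.12 in MEF, 12.54, 13.13 and 12.69 at days 3, 7 and 14, 12.45 after sorting and 13.37 on the endogenous-labelled array. Hp, the haemoglobin scavenger haptoglobin, had 5.05, 6.34, 8.40, 8.19, 7.39 and 9.40 in the same order of arrays. Steap4, a metalloreductase, lay between 6.53 in MEF and 10.25 in sorted cells, and Il6, an interleukin, between 6.59 in MEF and 8.86 at day 14. Of the cytokines that induce Lcn2 in many cells, Il1b and Il17a stayed below the floor. Il1a was above it at days 7 and 14 with 5.42 and 5.75 and on the endogenous-labelled array with 5.91, and Tnf had 5.03 in MEF and 5.38 on the endogenous-labelled array and was below it on the other 4.

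Likeness of pattern was measured as Pearson correlation over the 6 floored values, among named genes that spanned 2 or more log2 units. The points share the same 6 arrays, and the values describe them only. For Lcn2 the nearest of 330 genes were Saa3 (r = 0.99), Parm1 (r = 0.97), Grpr, the receptor of gastrin-releasing peptide (r = 0.97), Angpt1, an angiopoietin (r = 0.96), and Gabra3, a GABA receptor subunit (r = 0.96). The nearest to Mup3 were Cfb, complement factor B (r = 0.97), Dpep1, a dipeptidase (r = 0.96), Snord104 (r = 0.95), Hp (r = 0.94) and Npy6r (r = 0.94). Cfb had 5.80 in MEF, 5.87, 8.17 and 7.64 at days 3, 7 and 14, 6.52 after sorting and 9.05 on the endogenous-labelled array. For Ptgds the highest correlation was lower, 0.80 with Fhl5, followed by Ifi204, Ccn2, F3 and Ccl3 at 0.60 to 0.70.

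**Figure D3:**
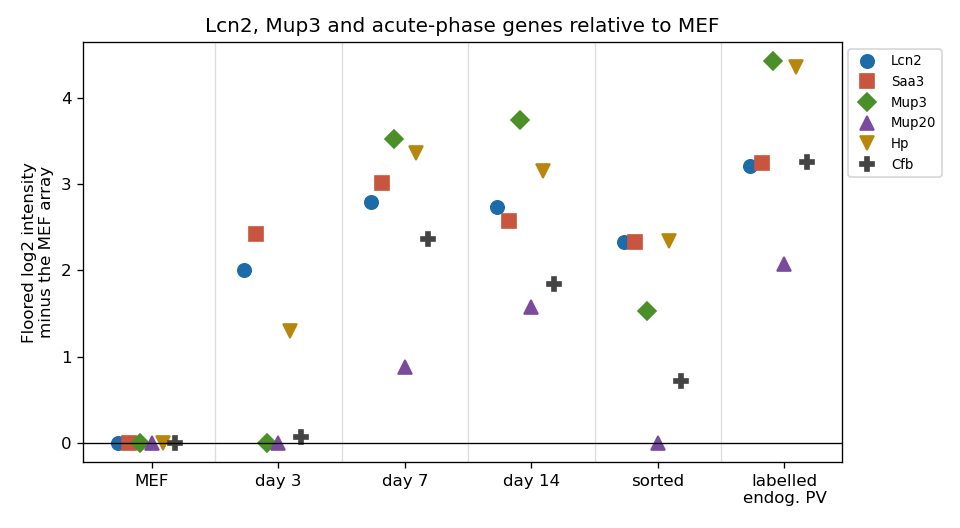
Floored log2 intensity minus that of the MEF array (y axis) of Lcn2, Saa3, Mup3, Mup20, Hp and Cfb on the 6 arrays (x axis); each symbol is 1 array. Lcn2 and Saa3 are above MEF from day 3 on, whereas Mup3 is at 0 at day 3 and at 3.52 at day 7.

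Apod was closest to genes of macrophages. The 5 nearest were Mpeg1 (r = 0.99), Cd36, a scavenger receptor (r = 0.99), Itgam, an integrin of myeloid cells (r = 0.98), Cybb, a subunit of the phagocyte oxidase (r = 0.98), and Lyz2, a lysozyme (r = 0.95). Lyz2 had 9.78 in MEF, 6.76, 7.99 and 8.06 at days 3, 7 and 14, 6.03 after sorting and 10.05 on the endogenous-labelled array. Of a list of 10 macrophage markers, 7 were above the floor in MEF, 6, 7 and 7 at days 3, 7 and 14, 5 after sorting and 8 on the endogenous-labelled array. Their summed linear intensity was 1800 in MEF, 402, 723 and 716 at days 3, 7 and 14, 419 after sorting and 2241 on the endogenous-labelled array. The sums were thus lowest on the arrays where Apod was at or under the floor and highest where Apod was highest. Lyz2, also among the 5 nearest genes, was the brightest of the list in MEF and on the endogenous-labelled array. Like Apod, Lyz2, Fcer1g, Adgre1 and Cd14 were lowest at day 3 and in sorted cells. Cd68 had 7.19 in sorted cells, above its 6.32 and 6.79 at days 7 and 14. Tyrobp was below the floor in MEF at 4.84, Csf1r spanned 0.66, and Mrc1 was above the floor only in MEF and on the endogenous-labelled array. Aif1 and Ptprc of that list stayed below the floor on all arrays. The sums of the 11 fibroblast markers put the 6 arrays in the same order as the macrophage sums. They were 35368 in MEF, 26693, 34189 and 31885 at days 3, 7 and 14, 30971 after sorting and 36562 on the endogenous-labelled array. At day 3, 5 of the 11 were at least 2-fold lower than in MEF and 1 higher, beside 2.70% and 2.37% of all genes. The parts of macrophage and of fibroblast RNA in the Apod values were not tested.

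**Figure D4:**
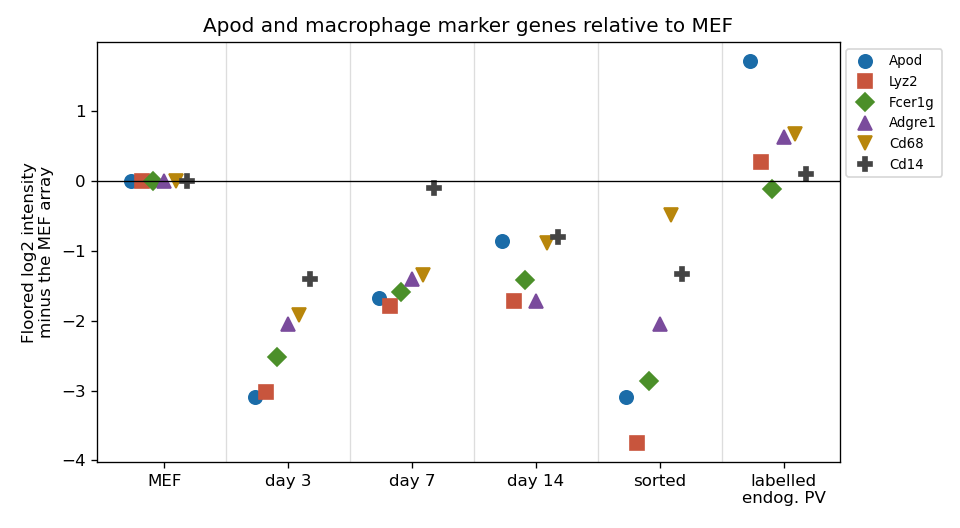
Floored log2 intensity minus that of the MEF array (y axis) of Apod and the macrophage markers Lyz2, Fcer1g, Adgre1, Cd68 and Cd14 on the 6 arrays (x axis); each symbol is 1 array. Apod and Lyz2 are both lowest at day 3 and in sorted cells, and Apod is 1.71 above MEF on the endogenous-labelled array. Cd68 is higher in sorted cells than at days 7 and 14. Csf1r, Tyrobp, Mrc1, Aif1 and Ptprc of the marker list are not drawn.

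Markers of other known sources of lipocalins were partly above the floor. Of 11 neutrophil markers, S100a8, S100a9, Mpo, Camp, Ngp, Cxcr2 and Retnlg were at or below the floor on all arrays, and the sum of the list stayed between 190 and 236. Afp, Fga, Fgb, Serpina1a, Cyp3a11 and Ttr, 6 of 10 hepatocyte markers, were likewise below it, and that sum lay between 207 and 262. At most 3 of the 10 were above the floor on any array, so nothing is read from the direction of the sum. Apoa2 of that list was above the floor on all 6 arrays, between 5.28 and 5.88, and Alb, which encodes albumin, had 5.74 in MEF and 5.56 on the endogenous-labelled array. Mag, Mobp and Olig2, of 7 oligodendrocyte markers, stayed below the floor, Mbp lay between 5.02 and 5.45, and the list summed to between 182 and 206. Epithelial markers summed to between 192 and 238, with Epcam and Krt14 below the floor and Krt8 between 6.01 and 6.28. Astrocyte markers were divided. Gfap, Aqp4 and Slc1a2 were below the floor on every array, and the other 3 were above it on all 6. Gja1, a gap junction protein that fibroblasts also make, lay between 7.93 and 9.08, Aldh1l1 between 5.58 and 6.48, and Slc1a3, a glutamate transporter, between 5.95 at day 14 and 7.69 on the endogenous-labelled array, against 6.10 in MEF. The astrocyte sum was 742 in MEF, 594, 680 and 426 at days 3, 7 and 14, 538 after sorting and 773 on the endogenous-labelled array. It was highest where Apod was highest. Its lowest value was at day 14, where Apod had 7.24, and not at day 3 or in sorted cells, where Apod was lowest. The part of such cells in the Apod values was not tested.

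Genes around the enzyme Ptgds in prostaglandin metabolism were measured for 19 of 22 symbols. Hpgds, the haematopoietic prostaglandin D synthase, and the prostaglandin D2 receptor gene Ptgdr stayed below the floor. Ptgs2, the inducible cyclooxygenase, lay between 7.85 on the endogenous-labelled array and 9.27 at days 3 and 14. Ptges, which makes prostaglandin E2, lay between 7.48 in MEF and 8.89 in sorted cells. Hpgd, which degrades prostaglandins, had 6.25 in MEF, 5.38 on the endogenous-labelled array and values below the floor on the other 4. Slco2a1, a prostaglandin transporter, ranged from 7.22 after sorting to 8.63 at day 7, and Ptgfr, a prostaglandin receptor, between 5.81 at day 14 and 7.01 at day 7. Of 12 to 14 genes measured in a comparison, at most 2 were higher and 1 lower in any of the 9, where 1.01% to 6.04% of all genes were higher and 0.870% to 2.70% lower, and its medians against MEF ran from -0.14 at day 3 to 0.22 on the endogenous-labelled array.

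Iron and lipid carriers handle the same kinds of cargo as Lcn2 and Apod. In the iron list, Cp, the ferroxidase ceruloplasmin, was at least 2-fold higher than MEF on all 5 other arrays. It lay between 7.91 in MEF and 10.43 on the endogenous-labelled array. Of 9 or 10 iron genes measured, 2, 1 and 2 were higher at days 3, 7 and 14, beside 2.37%, 2.79% and 3.47%. In sorted cells 3 were higher than in MEF, beside 6.04%, and on the endogenous-labelled array 1, beside 3.53%. In these comparisons 0 were lower. Tfrc, the transferrin receptor, was below the floor in MEF at 4.69 and highest at day 3 with 6.23. Slc40a1, the iron exporter, lay between 5.06 at day 14 and 6.65 in sorted cells. Hamp, the iron hormone hepcidin, stayed below the floor. Among lipid carriers, Apoe lay between 6.34 at day 3 and 7.39 on the endogenous-labelled array, Clu, an extracellular chaperone, between 6.95 at day 14 and 8.31 at day 7, and Apoc1 between 5.51 in MEF and 6.90 at day 7. Abca1, which exports cholesterol, had 9.02 in MEF and 10.04 on the endogenous-labelled array.

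Genes beside Lcn2 on chromosome 2 were compared in the same way. Of the 3 on either side, 5 spanned under 1 log2 unit. The exception was 1110008P14Rik, the next gene before it, which had 6.54 in MEF, 7.59, 8.03 and 8.30 at days 3, 7 and 14, 8.88 after sorting and 8.10 on the endogenous-labelled array. Like Lcn2 it was lowest in MEF, but it was highest in sorted cells. Lcn2 was lower there than at day 14 by 0.40, which is under 2 technical spreads.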

How the data were processed

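The authors deposited 1 table of log2 intensities for 6 arrays, 1 per group, made with Affymetrix Expression Console, per the submitters' processing notes. Version, algorithm and build: not given in the sources used here. The log2 scale was read from the values. Of 41345 probe sets, 5333 numbered below the first annotated one were left out as controls. A gene took its probe set with 1 symbol and the highest mean (23521 such probe sets, 22180 genes). Names were those of the platform annotation. Values under 5.01, the median of the remaining probe sets, were raised to it. The 9 comparisons are differences between 2 arrays, with no test. The technical spread was the standard deviation, over 327 to 403 genes, of the difference between the log2 differences of the 2 brightest probe sets, divided by the square root of 2. The number of arrays limits the precision. Counting was tested on simulated data. Named were the 4 members, family genes above the floor, list genes spanning 1 or more (or the 4 widest) and the 5 genes most like each member, of which the text gives a selection. Genes next to a member, by RefSeq order, were added after their values were seen. The members and lists were chosen with earlier results of these data known. Mup windows were aligned with Biopython 1.88. Motifs were chosen after the values were seen, and a looser kappa B pattern, tried first, was dropped. Alternatives were quantile normalization, centring on 12 housekeeping genes, no floor, a floor at percentile 75, the mean of probe sets and a 4-fold threshold.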

Additional observations from a re-analysis of the deposited data

How the results depend on the processing

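Quantile normalization, centring on housekeeping genes and no floor left the number of members higher or lower unchanged in all 9 comparisons. No called difference changed sign under any alternative. The mean of probe sets could not change a member, because each member had 1 probe set. Housekeeping centring moved the median of all genes by under 0.1 log2 units. A floor at percentile 75 (6.58) left 1 member higher in sorted cells against MEF, 1 higher at day 7 against day 3 and 1 lower in sorted against unsorted day 14 cells, each 2 before, since a higher floor shortens differences from low values. A 4-fold threshold left 1 higher in sorted cells against MEF, 1 higher at day 7 against day 3 and 0 lower at day 7 against MEF, and took the endogenous-labelled array against MEF from 3 higher to 2. Of 36 differences, 11 moved by more than the technical spread with the higher floor and 2 with no floor. No paired analysis was possible because each group had 1 array. Intensities near background limit Ptgds and the low arrays of Mup3 and Apod.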

Other observations

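Intracellular relatives of the lipocalins, which carry fatty acids and retinoids inside the cell, were measured for 14 of 15 symbols, and 6 were above the floor on every array. Fabp7, the brain fatty acid-binding protein, had 5.98 in MEF, 7.73, 8.20 and 7.90 at days 3, 7 and 14, 8.15 after sorting and 7.22 on the endogenous-labelled array. Fabp4, the adipocyte form, lay between 8.32 on the endogenous-labelled array and 10.30 at day 14. Crabp2, which carries retinoic acid, was lowest in MEF with 7.61 and highest in sorted cells with 9.74, while Crabp1 was highest in MEF with 9.93 and lowest at day 3 with 8.12. Of these 6, Fabp4 and Crabp2 were at least 2-fold higher in sorted cells than on the endogenous-labelled array, and 0 were lower. Over all genes, 2.28% were higher and 1.91% lower in that comparison. Mup3 and Apod differed there in the opposite direction. Of 6 adipocyte markers measured, Adipoq and Lep were at or below the floor on all 6 arrays and Cebpa was above it on all 6, between 5.39 and 6.15, while Plin1, Retn and Cidec were above it on 4, 4 and 2 arrays.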
